A study of Arabidopsis thaliana with 4 samples.

Results

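Genes that build the methionine-derived (aliphatic) glucosinolates were followed in Arabidopsis seedlings that overexpress RECA1. The list held 10 genes, by locus: 6 of chain elongation, 1 transporter gene and 3 grouped under the core steps. Of the last, GSTU20 is listed as co-regulated with the pathway rather than for a step. It is counted below among the synthesis genes. The annotation used pairs a probe set with 3 of the 10, namely BCAT4 (AT3G19710), GSTU20 (AT1G78370) and AT2G31790, each with 1 probe set. AT2G31790 has no symbol in the annotation and stands on the list as UGT74C1, the name used below. The other 7 genes were not analysed here: AT5G23010 (MAM1), AT4G13430 (IIL1), AT2G43100 (IPMI2), AT3G58990 (IPMI1), AT5G14200 (IMD1), AT4G12030 (BAT5) and AT1G74090 (SOT18). The 3 measured genes are 3 of 13286 loci that the annotation pairs with a probe set of their own. The list was selected on the difference between RECA1-OE and Col-0 on these same arrays, so the differences of its members are given as a description, without a test. All 3 passed the filter on dim probe sets, and their mean lay above its limit in each group.

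Glucosinolates are sulfur-rich defence compounds of the cabbage order. They are held apart from the enzyme myrosinase, which cleaves them to toxic products when tissue is damaged. The aliphatic ones start from methionine: its amino group is removed, its side chain is lengthened by repeated cycles of a condensing enzyme, an isomerase and a dehydrogenase, and the product is turned into the core structure by cytochromes P450, sulfur transfer, glucosylation and sulfation. Related MYB transcription factors, working with MYC factors of the jasmonate response, switch these genes on together.

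Total RNA of whole seedlings, 2 weeks old, was measured on 4 Affymetrix arrays. The wild type was ecotype Col-0, on 2 arrays, and the other group, here called RECA1-OE, was T3 transgenic plants overexpressing RECA1 (AT1G79050), which encodes a chloroplast protein related to bacterial RecA, also on 2 arrays. Both groups were in the Col-0 background, shared the medium, temperature and day length, and received no treatment. The sample titles call the 2 arrays of each group biological replicates. The promoter of the transgene and the number of independent lines are not given in the sources used here. Nor is it stated whether the samples of a group were grown separately, so the p-values measure only the spread between these samples. No probe set is paired with RECA1 in the annotation, so the groups were not checked against its level. Values are log2 MAS5 signals, where 1 unit is a 2-fold difference. The 13647 probe sets with a mean of 6.82 or more were tested, and precision is limited by having 2 arrays in a group.

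In these seedlings the 3 measured synthesis genes all had a lower signal in RECA1-OE than in Col-0. BCAT4 was 4.41-fold lower, GSTU20 3.84-fold and UGT74C1 2.50-fold. Both RECA1-OE arrays lay below both Col-0 arrays in 3 of 3, and the same held for 35.1% of all tested probe sets. With a difference of at least 2-fold besides, the counts were 3 of 3 and 2.82% of tested probe sets. Nothing is read from either count, since the list came from this contrast. The median log2 difference of the 3 genes was -1.94, beside -0.04 over all tested probe sets. In whole seedlings, fewer cells that express a gene and less of its RNA per cell cannot be told apart.

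The first step was represented by BCAT4, the aminotransferase that removes the amino group of methionine before chain elongation. Its log2 signal was 12.53 and 12.32 on the Col-0 arrays, and 10.56 and 9.997 on the RECA1-OE arrays. The lower Col-0 array stood 1.75 above the higher RECA1-OE array. The means were 12.42 ± 0.15 in Col-0 and 10.28 ± 0.40 in RECA1-OE (SD, n = 2 each), a log2 difference of -2.14. On the linear scale the signal was 5896 and 5096 in Col-0 against 1514 and 1022 in RECA1-OE. The RECA1-OE arrays differed from each other by 0.57, and the Col-0 arrays by 0.21. Of all tested probe sets, 26 had a larger fall. The remaining 5 chain elongation genes on the list, which encode the condensing enzyme and subunits of the isomerase and dehydrogenase, were not analysed here, nor was the transporter gene.

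GSTU20 encodes a tau-class glutathione transferase, a family of enzymes that join glutathione to reactive compounds. Its log2 signal was 12.51 and 12.71 on the Col-0 arrays, and 10.78 and 10.56 on the RECA1-OE arrays. The arrays differed by 0.20 within Col-0 and by 0.21 within RECA1-OE, and the gap between the groups was 1.74. The means were 12.61 ± 0.14 and 10.67 ± 0.15 (SD, n = 2 each), a log2 difference of -1.94, and 34 tested probe sets had a larger fall. In linear signal this was 5841 and 6711 in Col-0 against 1753 and 1512 in RECA1-OE.

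UGT74C1 is a glycosyltransferase gene of the same group as UGT74B1, whose product adds the glucose of the glucosinolate core. Its log2 signal was 10.47 and 10.65 on the Col-0 arrays, and 9.001 and 9.48 on the RECA1-OE arrays. The groups did not overlap, with a gap of 0.99, and the RECA1-OE arrays differed from each other by 0.48. The means were 10.56 ± 0.13 and 9.24 ± 0.34 (SD, n = 2 each), a log2 difference of -1.32, and 136 tested probe sets had a larger fall. The linear signal was 1414 and 1610 in Col-0 against 513 and 713 in RECA1-OE.

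**Figure D1:**
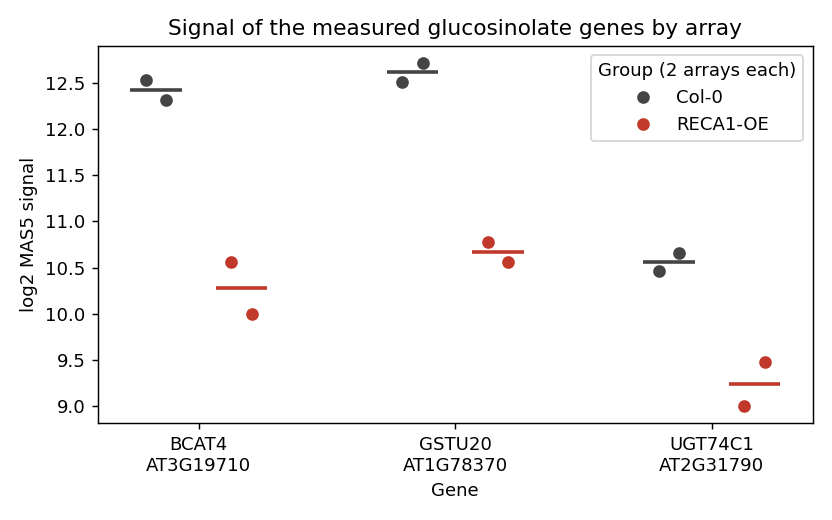
Log2 MAS5 signal (vertical axis) of the 3 measured synthesis genes (horizontal axis). Each point is 1 array and each bar the mean of the 2 arrays of a group. For each gene both RECA1-OE arrays sit below both Col-0 arrays, with gaps of 1.75 for BCAT4, 1.74 for GSTU20 and 0.99 for UGT74C1.

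The measured size of the fall differed among the 3 genes, and the genes were not tested against each other. Taking each RECA1-OE array against each Col-0 array, the log2 difference ran from -1.75 to -2.53 for BCAT4, from -1.74 to -2.15 for GSTU20 and from -0.99 to -1.65 for UGT74C1. The ranges of BCAT4 and GSTU20 overlapped, and that of UGT74C1 lay outside both. Within RECA1-OE the genes did not move as one: the log2 signal of replicate 2 minus that of replicate 1 was -0.57 for BCAT4, -0.21 for GSTU20 and 0.48 for UGT74C1. Within Col-0 the corresponding values were -0.21, 0.20 and 0.19. Over all tested probe sets the median absolute difference between arrays of a group was 0.18 in RECA1-OE and 0.19 in Col-0. The RECA1-OE arrays were thus further apart for all 3 genes than for the typical probe set, though only slightly for GSTU20. All 3 genes had means above the lowest tested mean of 6.82 in both groups, the lowest being 9.24 for UGT74C1 in RECA1-OE.

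Probe sets of like brightness had a median difference near zero. Among those within 0.5 of a gene's mean log2 signal, the median log2 difference was -0.05 around BCAT4, -0.09 around GSTU20 and -0.01 around UGT74C1.

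**Figure D2:**
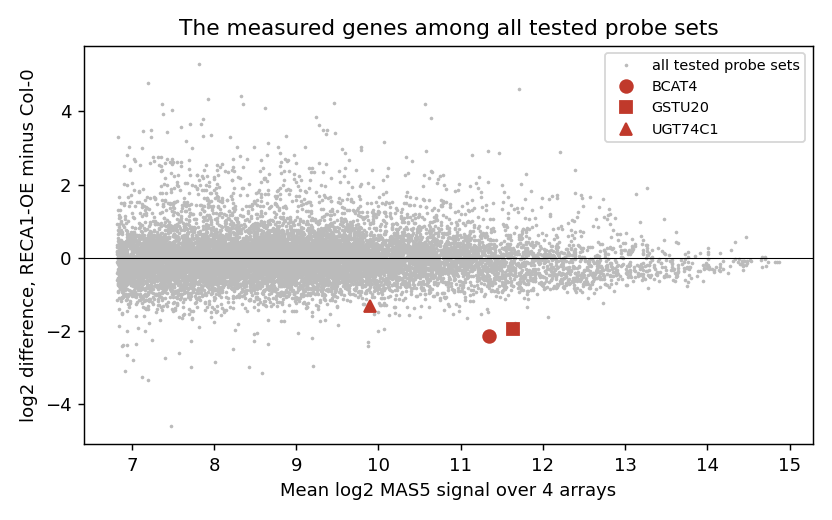
Log2 difference between RECA1-OE and Col-0 (vertical axis) against the mean log2 MAS5 signal over 4 arrays (horizontal axis) for the 13647 tested probe sets (grey points). The 3 synthesis genes (red symbols) lie below the main body of points, at -2.14 for BCAT4, -1.94 for GSTU20 and -1.32 for UGT74C1.

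Lists of related genes asked whether other parts of glucosinolate, sulfur and methionine metabolism differed between the groups. They held 106 genes, of which 16 had a paired probe set and 15 were bright enough to be tested. The lists of tryptophan-derived glucosinolate genes and of other chain elongation genes had no paired probe set and were not analysed. Each other list was measured only in part, from 1 of 16 glucosinolate breakdown genes to 2 of 3 glucosinolate transporters. By limma, 0 of the 15 rose and 0 fell at an adjusted p under 0.05, and 4 had an unadjusted p under that value. Over all tested probe sets 19.9% were called, 9.94% higher and 9.97% lower. The median log2 difference of the 15 genes was 0.04, with 6 below zero and 9 above. Both RECA1-OE arrays lay below both Col-0 arrays in 3 and above them in 5, beside 35.1% and 29.9% of all tested probe sets. For 14 of the 15 the 95% interval of the difference stayed within 2-fold in either direction, and in 0 did it reach a 2-fold fall. These genes were not tested against the 3 synthesis genes, which were selected on this contrast.

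Of the other core steps only UGT74B1 was measured. Its log2 signal was 10.28 and 10.69 in Col-0 and 10.29 and 10.47 in RECA1-OE. The groups overlapped, and the log2 difference was -0.10, with a 95% interval from -0.53 to 0.32. A further relative of UGT74C1, UGT74D1, lies 4 genes away from it on chromosome 2 and differed by -0.35 ± 0.15 (SE), with a limma adjusted p of 0.130. Among side chain modification genes, AOP1, of the family of dioxygenases that alter the side chain, differed by -0.24, with a 95% interval from -0.67 to 0.18. AT2G25450, which stands on the list as the hydroxylase gene GSL-OH and has no symbol in the annotation, differed by 0.04, with a 95% interval from -0.33 to 0.40. AOP3 was too dim to test, with log2 signals of 4.40 and 5.45 in Col-0 and 4.26 and 1.72 in RECA1-OE, and is named because it was the 1 gene left out, after its values were seen.

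The regulators measured were MYC3 and MYC4, bHLH factors of the jasmonate response that act with the glucosinolate MYB factors, and AT1G04770, which stands on the list as SDI2, a repressor of glucosinolate synthesis under sulfur shortage, and has no symbol in the annotation. MYC3 had log2 signals of 8.96 and 8.78 in Col-0 and 9.004 and 9.30 in RECA1-OE, a difference of 0.28 with a 95% interval from -0.13 to 0.69. MYC4 differed by 0.04, with a 95% interval from -0.49 to 0.57, and SDI2 by -0.11, with a 95% interval from -0.57 to 0.36. None of these 3 passed limma's test, and the MYB regulators on the list were not analysed here.

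The glucosinolate importers GTR1 and GTR2, which load the compounds from the apoplast into cells, both had a slightly higher mean in RECA1-OE. GTR2 had log2 signals of 9.88 and 10.02 in Col-0 and 10.49 and 10.32 in RECA1-OE. Its groups did not overlap, but the difference of 0.45 ± 0.15 (SE) did not pass, with a limma adjusted p of 0.076. GTR1 differed by 0.16, with a 95% interval from -0.19 to 0.50. BGLU28, a beta-glucosidase linked to glucosinolate breakdown under sulfur shortage, varied widely: its log2 signal was 8.61 and 4.86 in Col-0 and 8.32 and 9.61 in RECA1-OE. The low mean of Col-0 came from replicate 2 alone, and the groups overlapped. Its difference of 2.23 ± 1.04 (SE) did not pass, the limma adjusted p being 0.172. The difference became 4.101 and was called without Col-0 replicate 1, and it was 0.36 without Col-0 replicate 2.

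The few measured genes that supply or use methionine and related amino acids did not pass either. They were 2 of 11 on the methionine list and 1 of 8 on the list of branched-chain relatives. MGL, the methionine gamma-lyase that breaks methionine down, had log2 signals of 7.82 and 7.70 in Col-0 and 8.26 and 8.41 in RECA1-OE. The groups did not overlap, and the difference of 0.57 ± 0.18 (SE) had a limma adjusted p of 0.059. CBL, the cystathionine beta-lyase of methionine synthesis, went the other way, with 10.88 and 10.86 in Col-0 and 10.25 and 10.53 in RECA1-OE. Its difference of -0.48 ± 0.16 (SE) had a limma adjusted p of 0.071. BCAT5, a branched-chain aminotransferase of the family of BCAT4, had 9.84 and 10.002 in Col-0 and 9.49 and 9.58 in RECA1-OE. Its difference was -0.39 ± 0.15 (SE), and the limma adjusted p was 0.116. In sulfate uptake and assimilation 3 of 22 listed genes were measured. The ATP sulfurylase genes APS3 and APS4 differed by -0.11 and 0.09, and SIR, the sulfite reductase gene, by 0.24. Their 95% intervals ran from -0.58 to 0.36, from -0.46 to 0.64 and from -0.16 to 0.64, in that order.

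**Figure D3:**
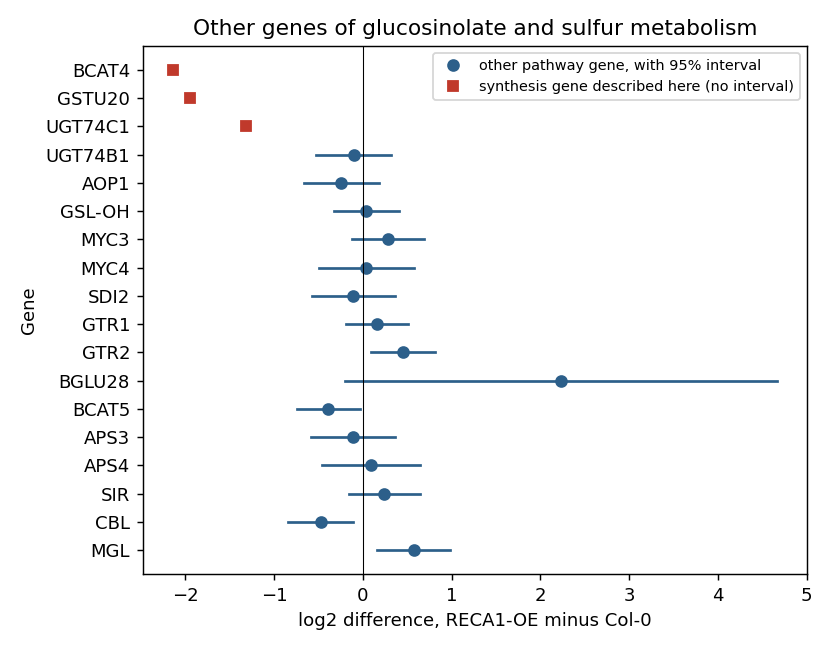
Log2 difference between RECA1-OE and Col-0 (horizontal axis) for each gene (vertical axis). Red squares are the 3 synthesis genes, shown without an interval, and blue points with lines are the 15 other tested genes with limma's 95% interval. The 14 intervals other than that of BGLU28 lie within 1 unit of zero.

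GSTU20 sits in a run of tau-class genes on chromosome 1, whose measured members did not all share its direction. GSTU22, 2 genes away, had log2 signals of 8.05 and 9.25 in Col-0 and 10.27 and 10.15 in RECA1-OE, so it was higher on both RECA1-OE arrays. GSTU21 and GSTU23, also neighbours, were too dim to test, with mean log2 signals of 4.29 and 6.89 in Col-0 and 4.79 and 6.23 in RECA1-OE. Of 10 tau-class genes other than GSTU20 with a paired probe set, 6 were tested, of which 1 rose (GSTU22), 1 fell (GSTU18) and 4 did not pass, beside 9.94% and 9.97% of all tested probe sets. Without RECA1-OE replicate 1, or without RECA1-OE replicate 2, neither was called, and with dim probe sets kept GSTU22 was not. Cross-hybridisation between the copies was not tested.

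The fall of the 3 genes was next set beside their neighbours along the chromosome, taking 5 protein-coding genes on each side. Of 30 neighbours, 16 had a paired probe set and 10 were tested. By limma 5 rose, 1 fell and 4 did not pass, beside 9.94% and 9.97% of all tested probe sets. GSTU22, already counted above as the tau-class gene that rose, is among the 5, so these counts are not separate. Without RECA1-OE replicate 1, or without RECA1-OE replicate 2, 1 neighbour rose (AT1G78410) and 0 fell, and with dim probe sets kept 2 rose. Beside BCAT4, AT3G19680 rose by 1.30 ± 0.28 (SE), from log2 signals of 8.84 and 9.72 to 10.44 and 10.73, and its limma adjusted p was 0.019. That rise was 0.86 on omitting Col-0 replicate 1 and 1.75 on omitting replicate 2 of that group. AT1G78410, 4 genes from GSTU20, had 6.04 and 5.36 in Col-0 and 9.06 and 9.23 in RECA1-OE. The 2 genes that follow UGT74C1 in order, AT2G31800 and AT2G31810, rose by 0.71 ± 0.18 and 0.56 ± 0.14 (SE), with limma adjusted p of 0.033 and 0.032. The neighbour that fell was MRL7-L (AT2G31840), 5 genes from UGT74C1, by 0.79 ± 0.16 (SE), and its limma adjusted p was 0.015. Its log2 signal was 9.10 and 9.07 in Col-0 and 8.37 and 8.22 in RECA1-OE.

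**Figure D4:**
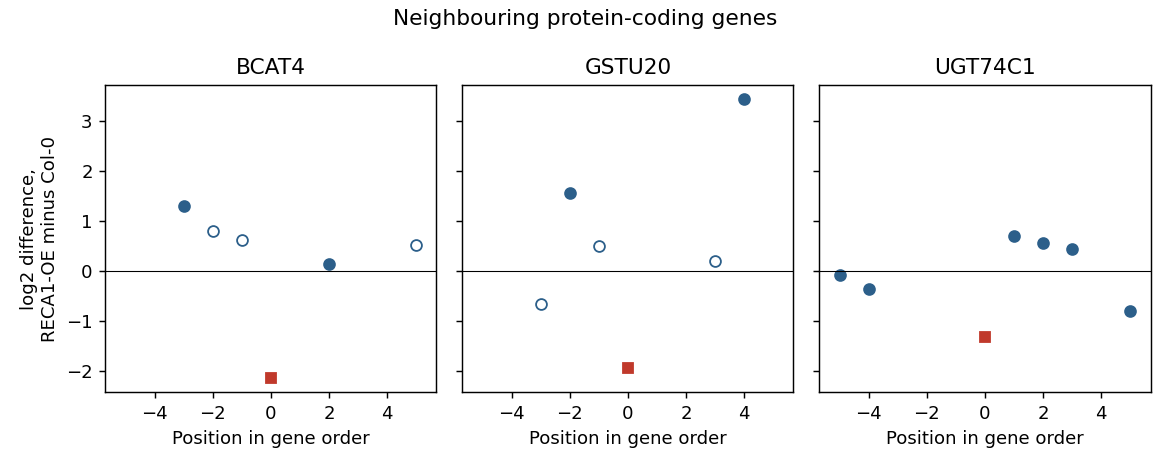
Log2 difference between RECA1-OE and Col-0 (vertical axis) by position in gene order (horizontal axis, in genes) around each synthesis gene (red square at 0). Filled points are tested neighbours and open points neighbours too dim to test. The 10 tested neighbours range from AT1G78410, at 3.44, to MRL7-L, at -0.79. The Col-0 mean of AT1G78410 lay below the limit for testing.

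The genes whose 4 array values lay nearest to the profile of the synthesis genes were sought among 7179 other named genes, each gene centred on its own mean. The measure was the root-mean-square distance, in log2 units, to the median profile of the 3 genes over the 4 arrays. The nearest was AT1G60590, at 0.0785, with log2 signals of 9.11 and 9.37 in Col-0 and 7.35 and 7.20 in RECA1-OE. It was followed by AT2G01610 at 0.123, AT3G57010 at 0.128, AT1G06830 at 0.139 and TBL36 (AT3G54260) at 0.180. GSTU20 itself lay at 0.053, BCAT4 at 0.209 and UGT74C1 at 0.378. Those 5 genes were therefore nearer to the median profile than BCAT4 and UGT74C1, and none of them stands on the lists used here. With 4 arrays in 2 groups, the measure reflects mainly the difference between the groups.

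Markers of plant parts served as a check of the labelled tissue. Of 9 leaf markers 3 had a paired probe set, namely LHCB4.1, PSAE-1 and RCA, and their log2 signals were between 14.01 and 14.62 on all 4 arrays. The log2 differences of these genes were -0.19, -0.09 and -0.07. PYK10, the 1 of 5 root markers measured, had 14.13 and 13.53 in Col-0 and 13.15 and 13.65 in RECA1-OE, a difference of -0.43. FAMA, 1 of 3 markers of guard cells and myrosin cells, the cells that hold myrosinase, had 7.86 and 7.60 in Col-0 and 7.26 and 7.60 in RECA1-OE, a difference of -0.30. None of these 5 markers passed limma's test, and their part in the fall of the synthesis genes was not tested. Markers of flowers and seed stores were not analysed here. Arrays of a group resembled each other more than arrays of different groups: over the tested probe sets, which are not independent, Pearson's r was 0.966 within Col-0, 0.980 within RECA1-OE and 0.882 to 0.924 between groups.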

How the data were processed

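Each array has a log2 value for each of 22746 probe sets, as the authors deposited them. The submitters' processing notes name MAS5 as the tool, without a version. That the base is 2 and that each array was scaled by 1 factor was read from the values: the linear mean, trimmed by 2% at each end, lay between 495.3 and 495.8 on the 4 arrays. Values below a linear signal of 1 were set to 1, and the 9099 probe sets in the lowest 40% of mean signal were left out.

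Gene names of probe sets came from the platform annotation: 13513 pair with 1 gene, 503 with several and 8730 with none, and 13436 matched a TAIR10.1 gene by Entrez ID. The brightest probe set stood for a gene. Coordinates are not printed, because the values name no genome build.

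RECA1-OE was compared with Col-0 with limma 3.58.1 in R 4.3.3 (lmFit, then two-sided eBayes with its trend option, Benjamini-Hochberg over all 13647 tested probe sets, threshold 0.05), with 2 residual degrees of freedom and 5.42 added by moderation. SE and 95% intervals are moderated. The fit was tested on simulated data with noise of 2 kinds. With spreads drawn around the fitted trend, the share of false calls stayed under the threshold, and 2-fold changes were more often missed than found. With each probe set's own moderated spread, most 2-fold changes were found, but the share of false calls exceeded the threshold, so single calls near it carry that uncertainty.

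The members, lists and tests were chosen with earlier results of these data known; the tau-class, UGT74 and neighbour lists were added once the annotation had been read. Named were the 10 list members, up to 4 genes of each related list (called ones by size, then by smallest unadjusted p), and the 5 nearest profiles. Same-numbered arrays were not paired: the deviations from the group means correlated at -0.06. Alternatives were other normalizations, filters and floors, the replicate block, no trend, and leaving out each array.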

Additional observations from a re-analysis of the deposited data

How the results depend on the processing

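The median log2 difference of the 3 synthesis genes lay between -2.05 and -1.84 under all 11 alternatives. The filters, the replicate block and taking all probe sets could not change it. RECA1-OE stayed below Col-0 on all arrays kept, in 3 of 3 wherever this was computed. Leaving out an array could not make separate groups overlap, and the filters and the block left the values as they were. Nothing is read from either result, since the list came from this contrast. With the replicate number as a block the median was -1.94, and 1256 probe sets were called higher and 1134 lower, against 1356 and 1360 without it; 0 related genes were called either way. Keeping dim probe sets gave 752 lower calls. Leaving out 1 array at a time gave 485 to 1930 higher and 261 to 1976 lower calls, with both minima on omitting RECA1-OE replicate 1 and both maxima on omitting Col-0 replicate 1; omitting RECA1-OE replicate 2 gave 654 and 463. Among the 15 related genes 0 to 1 were called higher and 0 lower in those fits. The 1 call was BGLU28 without Col-0 replicate 1, a fit that leaves a lone Col-0 array, assumed to vary like the other group, and in which the moderation ignored each gene's own spread. Differences near zero turned sign when 1 array was left out, and ran from -0.30 to 0.080 for APS3, -0.21 to 0.39 for APS4, -0.10 to 0.17 for GSL-OH, -0.23 to 0.30 for MYC4, -0.30 to 0.087 for SDI2 and -0.31 to 0.10 for UGT74B1. Those of AOP1 (-0.38 to -0.11), MYC3 (0.14 to 0.43), SIR (0.035 to 0.45) and GTR1 (0.10 to 0.21) kept their sign but moved by over 1.5 times, as did BGLU28 (0.36 to 4.101), and besides BGLU28 none of these was called. In both fits without a Col-0 array the moderation ignored each gene's own spread. The upper ends of the leave-one-out counts, above and below, come from those fits and are not comparable with the other fits. The neighbour and tau-class counts were recomputed after the data had been seen. Leaving out 1 array gave 1 to 6 neighbours higher and 0 to 1 lower, and 0 to 2 tau-class genes higher and 0 to 2 lower. With dim probe sets kept, 2 neighbours and 0 tau-class genes were higher. With the replicate block 4 neighbours were higher in place of 5. With 1 probe set per locus, taking all probe sets changed nothing.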
